A study of Mus musculus with 12 samples.

Results

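The genes described here set the pace of the G1 phase of the cell cycle: the D-type cyclins Ccnd1, Ccnd2 and Ccnd3, the E-type cyclins Ccne1 and Ccne2, the kinases Cdk4 and Cdk6, and the inhibitors Cdkn1a, Cdkn1b and Cdkn2a. They were chosen by name as 10 of the 23086 gene symbols in the deposited count table, and all 10 had enough counts to be tested. The RNA came from embryoid bodies, clumps of mouse embryonic stem cells that start to form embryonic tissues, after 2 days of differentiation. The cells were A2lox.cre embryonic stem cells, a line built so that a gene placed in it is switched on by doxycycline, and every library came from cells carrying a FLAG-tagged Lhx1 transgene. Lhx1 encodes a LIM homeodomain transcription factor needed for formation of the head in the mouse embryo.

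The 4 groups of 3 libraries were the FLAG-Lhx1 mutant line given doxycycline for 16 h, the FLAG-Lhx1 mutant line given none, the FLAG-Lhx1 wild-type line given doxycycline for 16 h and the FLAG-Lhx1 wild-type line given none. They are called treated mutant, untreated mutant, treated wild type and untreated wild type below. The sources used here do not give the change in the mutant Lhx1, the number of clones behind each line or whether replicates were separate cultures, so the p-values cover the spread among these libraries alone, which may be technical. No group lacked a transgene, so an effect of doxycycline itself cannot be told apart from one of the induced Lhx1. Lhx1 itself stood at 248 ± 12.6 CPM (counts scaled to a library of 1000000) in treated mutant, 0.421 ± 0.0124 in untreated mutant, 296 ± 9.37 in treated wild type and 2.09 ± 1.13 in untreated wild type (mean ± SD, n = 3 each), high in both groups labelled as treated. Libraries held between 4289984 and 4850393 counts. The third library of untreated wild type stood apart in the hypoxia gene Bnip3 (229 CPM, against 58.5 and 63.3 CPM in the others of its group), and the second library of treated wild type in the ribosomal RNA repeat Rn45s (1.45% of its counts, against 0.0884% to 0.265% in the other libraries). The epiblast and pluripotency markers were abundant, with all 10 tested and a summed level of 4846 to 5532 CPM per library.

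D-type cyclins are the part of the cycle machinery most directly driven by growth signals and developmental transcription factors. They bind CDK4 or CDK6 and phosphorylate the retinoblastoma protein RB, which releases E2F transcription factors; E2F then raises the E-type cyclins, whose kinase CDK2 completes RB phosphorylation and starts DNA replication. CDKN1A (p21) and CDKN1B (p27) bind cyclin-CDK complexes, and the Cdkn2a locus encodes INK4A, which blocks CDK4 and CDK6, and ARF, which stabilises p53. Mouse embryonic stem cells are known for a short G1 phase with abundant cyclin E and little cyclin D, and the D-type cyclins rise as the cells leave pluripotency.

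The D-type cyclins are shown at the start of their coding sequence, because all of them carry there the leucine-x-cysteine-x-glutamate motif with which they grip RB, and because reads can be credited to 1 of the 3 genes only where their letters differ. The lines give the first 45 coding bases of each, 5′ to 3′ on the coding strand, from the GENCODE M21 transcripts on mm10, and the capitals mark the 5 codons of the motif.
Ccnd1: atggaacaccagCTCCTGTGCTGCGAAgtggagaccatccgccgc
Ccnd2: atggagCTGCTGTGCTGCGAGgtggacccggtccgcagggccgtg
Ccnd3: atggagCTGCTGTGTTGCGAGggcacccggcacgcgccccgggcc
Ccnd1 lies on chr7:144929931-144939925 (minus strand), and the bases shown are chr7:144939649-144939693. Ccnd2 lies on chr6:127125162-127152193 (minus strand), and its bases are chr6:127150729-127150773. Ccnd3 lies on chr17:47505051-47599691 (plus strand), and its bases are chr17:47593655-47593699. All of these bases are coding exon. The motif began at codon 5 in Ccnd1 and at codon 3 in Ccnd2 and Ccnd3. Over the aligned coding bases Ccnd1 and Ccnd2 were 70.5% identical, Ccnd2 and Ccnd3 69.5% and Ccnd1 and Ccnd3 67.3%, with Cdk4 and Cdk6 at 70.3% and Ccne1 and Ccne2 at 62.2%. The longest run of bases shared by any of their transcripts, untranslated parts included, was 20 for Ccnd1 and Ccnd2, 15 for Ccnd2 and Ccnd3, 17 for Ccnd1 and Ccnd3, 20 for Cdk4 and Cdk6 and 18 for Ccne1 and Ccne2.

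Set side by side per length of exon, the kinase Cdk4 and the cyclin Ccne1 were the most abundant transcripts of the 10 and Ccnd2 the least abundant in untreated wild type. In these libraries the level was 175 ± 3.50 CPM per kilobase for Cdk4, 98.4 ± 3.66 for Ccne1 and 25.3 ± 2.22 for Ccnd1 (mean ± SD, n = 3). Cdkn1a followed at 11.6 ± 1.86, Ccne2 at 10.01 ± 0.334, Cdkn1b at 8.85 ± 1.39, Ccnd3 at 7.36 ± 0.402 and Cdkn2a at 6.88 ± 1.57 CPM per kilobase. Each gene in that middle stretch had libraries within the range of its neighbour in the order, apart from Cdkn1b and Ccnd3, whose libraries did not overlap, and dividing by the longest transcript in place of all exons rearranges the stretch, so its order is not firm. Cdk6, the partner of D-type cyclins that many differentiated cells use, was at 1.03 ± 0.0334 and Ccnd2 at 0.747 ± 0.0147 CPM per kilobase, with no overlap between them. Cdk6 made up between 0.483% and 0.679% of the summed Cdk4 and Cdk6 level per kilobase in the 4 group means.

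**Figure D1:**
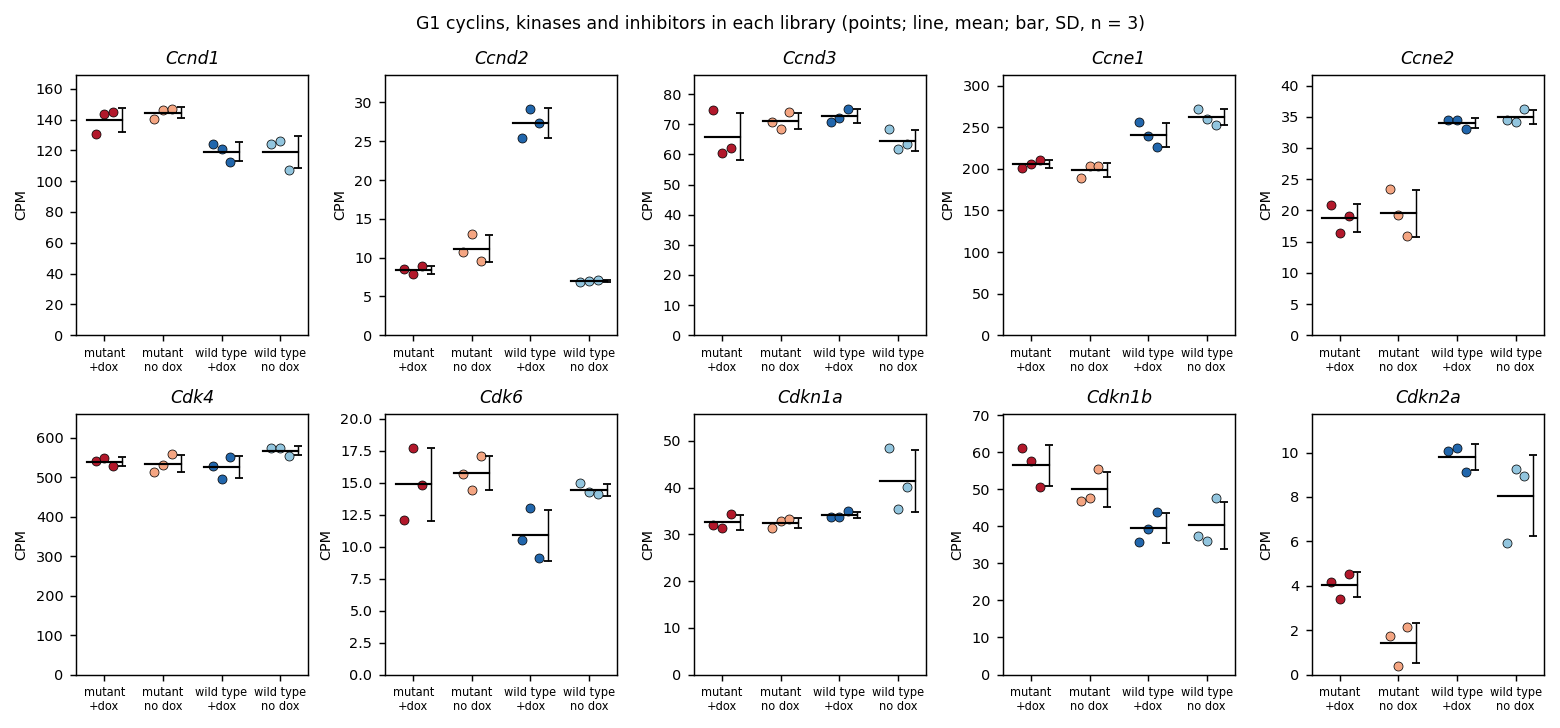
Level of each of the 10 genes in CPM (axis from 0) in every library, grouped as treated mutant, untreated mutant, treated wild type and untreated wild type; points are libraries, horizontal lines are group means and error bars are the SD (n = 3). Ccnd2 is high in all 3 treated wild-type libraries, at 27.3 CPM on average, and Cdkn2a is low in untreated mutant, at 1.42 CPM on average.

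The comparison of treated with untreated wild type gives the response of the wild-type line to 16 h of doxycycline. Ccnd2 rose, and it was the only member that passed the test. Ccnd2 had 25.4, 29.2 and 27.4 CPM in the treated wild-type libraries, against 6.90, 7.01 and 7.17 CPM in the untreated wild-type libraries, which rest on 111, 123 and 126 counts and 29, 31 and 32 counts. Every treated library stood well above every untreated one, and the spread within each group was small beside the gap. The group means were 27.3 ± 1.92 CPM in treated and 7.03 ± 0.138 CPM in untreated wild type (SD, n = 3 each), a log2 fold change of 1.95 (SE 0.15, 95% interval 1.64 to 2.26, adjusted p = 4.81e-15 by edgeR's quasi-likelihood test with Benjamini-Hochberg adjustment over 12322 genes). One of 10 members was thus called in this comparison, beside 5.32% of all genes tested, or 2.76% counting only those that rose. In RNA from whole embryoid bodies, a change in the number of cells that transcribe a gene and a change in the RNA per cell cannot be told apart.

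Ccnd2 therefore made up a larger portion of the D-type cyclin transcripts in treated wild type. Its part of the summed Ccnd1, Ccnd2 and Ccnd3 level per kilobase was 7.26%, 8.41% and 8.25% in the treated wild-type libraries, against 2.097%, 2.16% and 2.48% in the untreated wild-type libraries. In the mutant line the Ccnd2 share averaged 2.36% in treated and 2.96% in untreated libraries. The difference of treated and untreated means was 5.73 percentage points in the wild-type and -0.60 in the mutant line, each of which an exact two-sided permutation test put at p = 0.1, the smallest value that 3 libraries against 3 can give. Without the second untreated mutant library the mutant value was -0.36, and as a share of plain counts, with no division by length, the differences were 8.78 and -0.96. Ccnd1 still supplied most of the D-type cyclin transcripts, with a mean of 69.3% in treated and 75.7% in untreated wild type, and Ccnd3 supplied 22.7% in treated and 22.1% in untreated wild type.

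**Figure D2:**
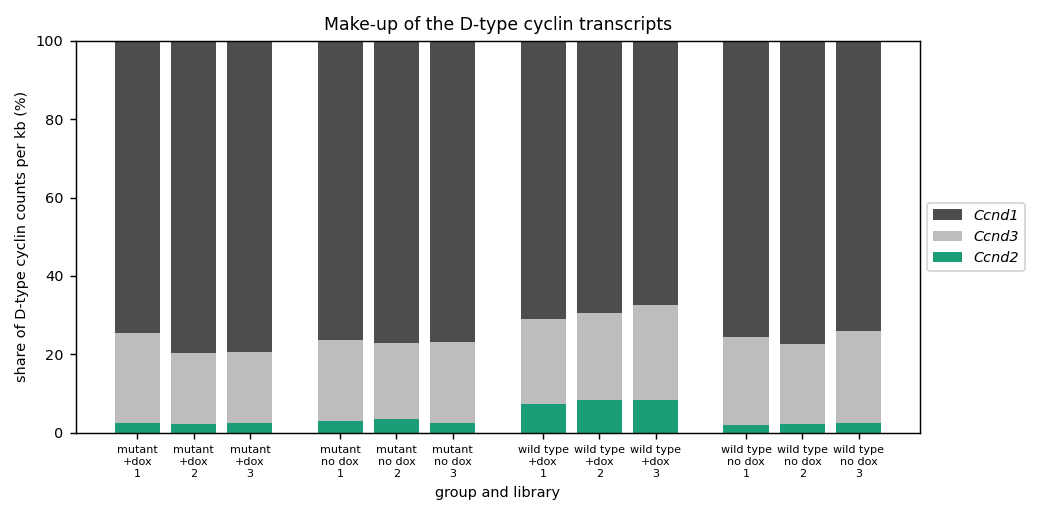
Share of the summed D-type cyclin counts per kilobase taken by Ccnd1 (dark grey), Ccnd3 (light grey) and Ccnd2 (green), in percent, with 1 stacked bar for each of the 12 libraries. The Ccnd2 share averages 7.97% in treated wild type and lies between 2.24% and 2.96% in the other groups.

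The other D-type cyclins did not pass the test in the wild-type line. Ccnd1 had 124, 121 and 112 CPM in treated and 124, 126 and 107 CPM in untreated wild type, and the groups overlapped (log2 fold change -0.00224, 95% interval -0.13 to 0.13). Ccnd3 had 70.8, 71.97 and 75.2 CPM in treated and 68.5, 61.7 and 63.4 CPM in untreated wild type, with every treated library higher, and its log2 fold change of 0.17 had an adjusted p of 0.240 by edgeR. Both kinases were lower in every treated library without passing. Cdk4 had 529, 496 and 552 CPM in treated and 574, 575 and 555 CPM in untreated wild type (log2 fold change -0.11, edgeR adjusted p = 0.155). Cdk6 had 10.5, 13.1 and 9.13 CPM in treated and 14.99, 14.2 and 14.1 CPM in untreated wild type (log2 fold change -0.41, edgeR adjusted p = 0.172). The gap between the groups was narrow for both.

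Cdkn1a, the p53 target that arrests cells in G1, had 33.8, 33.7 and 35.00 CPM in treated and 48.5, 35.5 and 40.1 CPM in untreated wild type, a log2 fold change of -0.27 with an adjusted p of 0.122 by edgeR. The treated libraries lay close together and below the untreated ones, which spread more widely; without the second untreated wild-type library the log2 fold change was -0.37 and the edgeR adjusted p 0.0317. In all, 5 of the 10 members had no overlap between treated and untreated wild type, beside 18.9% of all genes tested. At an unadjusted p under 0.05 the count was 6 of 10, beside 16% of all genes. The E-type cyclins, Cdkn1b and Cdkn2a overlapped between treated and untreated wild type, with log2 fold changes of -0.12 for Ccne1, -0.04 for Ccne2, -0.02 for Cdkn1b and 0.27 for Cdkn2a. The median log2 fold change of the 10 members was -0.03, beside -0.00344 over all genes tested.

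Doxycycline in the mutant line raised Lhx1 as well, and this comparison gives the response of that line to doxycycline. None of the 10 members passed edgeR's test there, beside 0.0162% of all genes tested (2 genes, Lhx1 and Hprt), and none passed with DESeq2 or limma-voom. At an unadjusted p under 0.05 there were 2 members, Ccnd2 and Cdkn2a, beside 4.69% of all genes, and these were also the only members whose groups did not overlap, beside 10.6% of all genes tested. Ccnd2 had 8.55, 7.90 and 8.86 CPM in treated and 10.7, 13.03 and 9.62 CPM in untreated mutant. It was thus lower in every treated mutant library, with a log2 fold change of -0.40 (95% interval -0.75 to -0.05, unadjusted p = 0.0245 and adjusted p = 0.999 by edgeR).

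Cdkn2a had 4.17, 3.42 and 4.53 CPM in treated and 1.72, 0.407 and 2.14 CPM in untreated mutant. Behind these stand only 19, 16 and 22 counts in treated and 8, 2 and 10 counts in untreated mutant. All treated libraries were higher, and the log2 fold change, 1.51 (95% interval 0.78 to 2.23), had an unadjusted p of 0.000115 and an adjusted p of 0.237 by edgeR. Its adjusted p ran from 0.0797 to 1.00 over the settings tried, DESeq2 and limma-voom included, and it passed in none of them. The other 8 members overlapped between treated and untreated mutant, with log2 fold changes between -0.11 for Ccnd3 and 0.18 for Cdkn1b.

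Ccnd2 was the only member called in the test of whether the response to doxycycline differed between the lines. The log2 response of the mutant line minus that of the wild-type line was -2.35 (SE 0.24, 95% interval -2.83 to -1.88, edgeR adjusted p = 5.97e-11), beside 2.49% of all genes called in this test, or 1.4% with a lower response in the mutant line. This difference lay between -2.45 and -2.22 under every setting tried, and it passed in each. The next members by size were Cdkn2a, at 1.23 (95% interval 0.39 to 2.08, edgeR adjusted p = 0.121), and Cdk6, at 0.33 (95% interval -0.12 to 0.78, edgeR adjusted p = 0.589). Neither passed. Ccnd3 came to -0.28 with an edgeR adjusted p of 0.183, and to -0.38 with an adjusted p of 0.0490 when the first treated mutant library was left out. Lhx1 was not matched between the treated lines: its mutant over wild-type log2 fold change was -0.29 to -0.22 over the settings, called in each. Hprt, the other gene called in the mutant response, had 20.1 ± 1.63 CPM in treated mutant and 41.6 ± 3.70 CPM in treated wild type. The part of these differences in the Ccnd2 result was not tested.

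The rise of Ccnd2 in treated wild type ran beside calls among neural, epiblast and primitive endoderm markers. The 8 neural markers, of which 3 were tested, summed to 83.7 to 91.9 CPM in treated mutant, 79.3 to 84.8 CPM in untreated mutant, 95.7 to 109 CPM in treated wild type and 69.9 to 80.6 CPM in untreated wild type. Most of each sum was Tubb3, with means of 58.6, 54.5, 77.4 and 58.6 CPM in the same order of groups. Pax6 rose in the wild-type line (log2 fold change 1.32, edgeR adjusted p = 2.13e-05), as did Tubb3 (0.40, adjusted p = 0.000222). Map2, also tested, did not pass (0.29). The rest were too low to test. Of these, Sox1 and Dcx had lower means in treated than in untreated wild type, and Zic1 and Neurog2 higher ones. Neurog2 was at 0 in untreated wild type and Olig2 at 0 in both wild-type groups. Epiblast markers summed to 5258 to 5420 CPM in treated mutant, 5339 to 5532 in untreated mutant, 4846 to 4989 in treated wild type and 5087 to 5511 in untreated wild type. Much of each sum was Dnmt3b, with means of 2602, 2707, 2473 and 2695 CPM in that order, and Pou5f1, with 1378, 1326, 1033 and 1194 CPM. Of the 10 epiblast markers 5 were called in the wild-type line, in both directions. Fgf5 rose (log2 fold change 0.88), at 159 ± 7.89 CPM in treated and 86.4 ± 4.91 CPM in untreated wild type, and so did Zfp42 (0.32), while Pou3f1 (-0.99), Nanog (-0.48) and Pou5f1 (-0.21) fell. The primitive endoderm markers, of which 4 of 8 were tested, summed to 32.9 to 35.4 CPM in treated mutant, 29.7 to 41.0 CPM in untreated mutant, 23.7 to 34.2 CPM in treated wild type and 26.4 to 28.7 CPM in untreated wild type. Of these only Lama1, a laminin chain, was called in the wild-type line, where it rose (0.83, edgeR adjusted p = 0.00103). That call was lost without the third untreated and the second treated wild-type library (edgeR adjusted p = 0.103). Lama1 went against the rest of its list: the 3 others tested lay below 0 without passing, and the median of the 4 was -0.66. The part of these markers in the Ccnd2 result was not tested. Fibroblast markers summed to 17.9 to 18.9, 15.7 to 21.0, 16.9 to 18.5 and 17.4 to 31.2 CPM in the same order of groups, with 4 of 8 tested, Postn at 0 in both mutant groups and Lum at 0 in untreated mutant and treated wild type. Trophoblast markers (3 of 8 tested, Prl3d1 at 0 in every group, Elf5 at 0 in all but treated mutant) summed to 10.1 to 16.3 CPM over all libraries, and no fibroblast or trophoblast marker was called in the wild-type line. Without the third untreated and the second treated wild-type library, Ccnd2 passed the test again in the wild-type line, with a log2 fold change of 1.92.

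The 4 genes nearest to Ccnd2 in pattern over the 12 libraries were found by the root mean square difference in log2 CPM after each gene was centred on its own mean. They were Slc7a8, an amino acid transporter (0.206), Cdh11, a cadherin (0.229), Fgfr2, a receptor for fibroblast growth factors (0.245), and Eras, a Ras protein of embryonic stem cells (0.252). In the wild-type line their log2 fold changes with doxycycline were 1.65, 2.11, 1.47 and 1.52, in that order, and all passed edgeR's test. In the mutant line they were -0.26, 0.05, 0.00481 and 0.04, and none passed. These genes were picked for the likeness, so the agreement is a description.

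**Figure D3:**
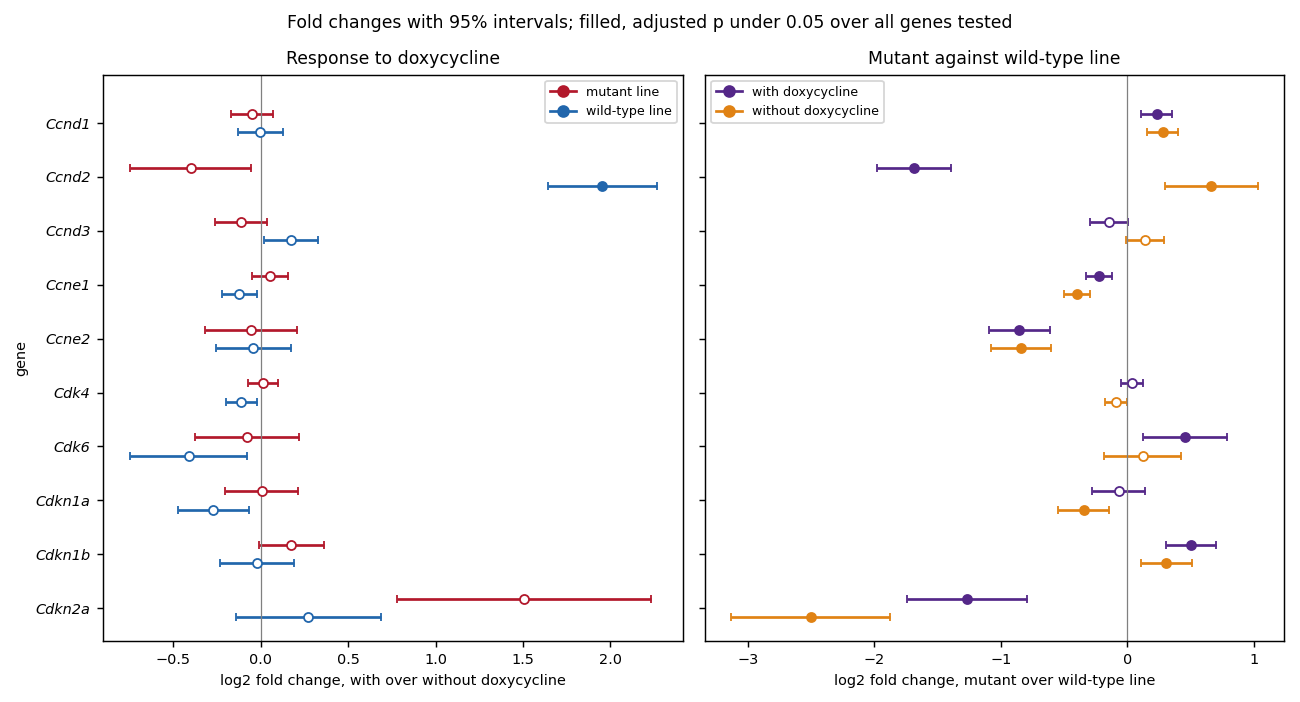
Log2 fold change (horizontal axis) with its 95% interval for each of the 10 genes, with over without doxycycline on the left (mutant line red, wild-type line blue) and mutant over wild-type line on the right (with doxycycline purple, without orange); filled points passed edgeR's test at an adjusted p under 0.05. On the left only Ccnd2 in the wild-type line is filled (1.95); on the right Ccne1, Ccne2 and Cdkn2a lie below 0 and Ccnd1 and Cdkn1b above 0 in both conditions, while Ccnd2 changes side.

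Most calls among these genes lay between the 2 lines rather than between treatments. Without doxycycline, Cdkn2a, Ccne2, Ccne1 and Cdkn1a were lower in the mutant line and Ccnd2, Ccnd1 and Cdkn1b were higher. That is 4 lower and 3 higher, 7 of 10 members called, beside 45.5% of all genes tested (22.6% lower and 23% higher). With doxycycline, Ccnd2, Cdkn2a, Ccne2 and Ccne1 were lower and Cdkn1b, Cdk6 and Ccnd1 higher in the mutant line, again 4 lower and 3 higher, 7 of 10, beside 44.4% of all genes (22.4% lower and 21.9% higher). Groups did not overlap for 7 members without doxycycline and for 6 with it, beside 51.8% and 51.7% of all genes. With so many genes called between the lines, the count of 7 among 10 is not a result about these members, and other differences between the lines cannot be told apart from the Lhx1 change.

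Cdkn2a, whose INK4A and ARF products both restrain the cycle, differed most of the members between the lines without doxycycline, and with it second to Ccnd2. It had 1.72, 0.407 and 2.14 CPM in untreated mutant, against 5.95, 9.27 and 8.97 CPM in untreated wild type. With doxycycline it had 4.17, 3.42 and 4.53 CPM in treated mutant, against 10.1, 10.2 and 9.13 CPM in treated wild type. Every mutant library was below every wild-type library, in both conditions, and the untreated mutant libraries rest on no more than 10 counts each. The log2 fold change of mutant over wild type was -2.50 without doxycycline (SE 0.31, edgeR adjusted p = 1.71e-09) and -1.27 with it (SE 0.24, edgeR adjusted p = 1.26e-05).

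The deposited counts give 1 value for the symbol Cdkn2a (chr4:89274471-89294653, minus strand), whose 2 promoters make the INK4A and ARF transcripts, so the products cannot be told apart. Both promoters are shown for that reason, as 250 bases before to 50 bases after the start, 5′ to 3′ on the minus strand, from RefSeq on GRCm38.p6. The upper line is the upstream start, that of ARF (chr4:89294570-89294869, start 89294619), and the lower line the downstream start, that of INK4A (chr4:89282143-89282442, start 89282192). Capitals mark the only match to an E2F motif.
Cdkn2a, upstream start: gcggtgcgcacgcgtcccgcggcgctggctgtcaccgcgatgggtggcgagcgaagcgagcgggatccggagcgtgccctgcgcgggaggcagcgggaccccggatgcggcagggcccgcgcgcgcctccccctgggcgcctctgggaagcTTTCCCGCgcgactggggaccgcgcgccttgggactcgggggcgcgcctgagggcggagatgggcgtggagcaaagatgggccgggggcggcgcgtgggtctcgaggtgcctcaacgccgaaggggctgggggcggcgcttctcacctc
Cdkn2a, downstream start: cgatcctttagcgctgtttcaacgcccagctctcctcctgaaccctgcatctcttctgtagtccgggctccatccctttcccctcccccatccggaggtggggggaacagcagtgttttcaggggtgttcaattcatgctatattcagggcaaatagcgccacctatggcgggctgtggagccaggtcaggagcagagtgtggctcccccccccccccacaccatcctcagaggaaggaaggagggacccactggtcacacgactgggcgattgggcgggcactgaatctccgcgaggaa
The letters searched on both strands were TTTCCCGC, TTTCGCGC, TTTGCCGC and TTTGGCGC, and the motif occurred in 2.26% of all 32851 promoter windows of this length. It occurred in 1 of the 10 windows that RefSeq gives for 7 of the members, the ARF window. The homeodomain letters TAATTA, searched on both strands, occurred in 5.29% of all windows and in none of those 10. Ccnd1, Ccnd2 and Ccne2 had no window in the table. A match of letters is a description of the window and shows no binding.

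Nearest to Cdkn2a by the same measure were 4 genes, at distances of 0.517 for Fbxo47, which encodes an F-box protein, 0.541 for Xlr3c, an X-linked gene with near-identical copies that can share its reads, 0.552 for Mab21l3 and 0.559 for Slc50a1, a sugar transporter. Each distance was over 0.5, so the likeness was looser than for the neighbours of Ccnd2. Without doxycycline the log2 fold change of mutant over wild type was -1.63 for Fbxo47, -3.04 for Xlr3c, -1.38 for Mab21l3 and -1.17 for Slc50a1, and all were called by edgeR. With doxycycline Fbxo47 was not called (-0.57, edgeR adjusted p = 0.272). Xlr3c (-2.54), Mab21l3 (-1.40) and Slc50a1 (-1.35) were called there too. These genes too were picked for the likeness, so the agreement is a description. Mean log2 CPM in untreated mutant was only 0.17 for Fbxo47, 0.16 for Xlr3c and 0.46 for Mab21l3, against 1.51, 2.67 and 1.76 in untreated wild type. A gene this low in 1 line can pass the filter on counts through the other line alone. Fbxo47 and Mab21l3 lost the call between the untreated lines when the second untreated mutant library was left out, at -1.17 and -0.88.

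Both E-type cyclins, the partners of CDK2, were lower in the mutant line. Ccne2 (chr4:11191351-11204779, plus strand) had 23.4, 19.3 and 15.8 CPM in untreated mutant, against 34.5, 34.1 and 36.3 CPM in untreated wild type. In the treated libraries it had 20.8, 16.4 and 19.2 CPM in mutant, against 34.5, 34.4 and 33.05 CPM in wild type. The mutant libraries were all lower, in both conditions. The log2 fold changes with and without doxycycline were -0.85 (SE 0.12, edgeR adjusted p = 2.97e-08) and -0.84 (SE 0.12, edgeR adjusted p = 2.98e-08), which differ by -0.01 (95% interval -0.35 to 0.33).

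Ccne1 (chr7:38097984-38107534, minus strand), the more abundant E-type cyclin, had 189, 203 and 203 CPM in untreated mutant, against 272, 260.2 and 253 CPM in untreated wild type. It had 201, 206 and 211 CPM in treated mutant, against 256, 239 and 227 CPM in treated wild type. Here too no mutant library reached the lowest wild-type one, though the gap was smaller: the log2 fold change was -0.40 without doxycycline (SE 0.05, edgeR adjusted p = 2.65e-09) and -0.22 with it (SE 0.05, edgeR adjusted p = 0.000256). Ccne2 supplied 6.51% of the E-type cyclin level per kilobase in treated mutant and 6.99% in untreated mutant, against 9.73% in treated and 9.24% in untreated wild type.

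Among the D-type cyclins, Ccnd1 was higher in the mutant line in both conditions. It had 140.4, 146 and 147 CPM in untreated mutant, against 124, 126 and 107 CPM in untreated wild type, and 131, 143 and 145 CPM in treated mutant, against 124, 121 and 112 CPM in treated wild type. Its groups did not overlap, and its log2 fold change was 0.28 without doxycycline (SE 0.06, edgeR adjusted p = 0.000158) and 0.23 with it (SE 0.06, edgeR adjusted p = 0.00168). Ccnd2 changed sides with treatment. Without doxycycline its mutant over wild-type log2 fold change was 0.66 (SE 0.18, edgeR adjusted p = 0.00246), with group means of 11.1 ± 1.73 CPM in untreated mutant and 7.03 ± 0.138 CPM in untreated wild type. With doxycycline it was -1.69 (SE 0.15, edgeR adjusted p = 1.32e-14), with 8.44 ± 0.487 CPM in treated mutant and 27.3 ± 1.92 CPM in treated wild type.

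Ccnd3 was not called in either condition, at 0.14 without doxycycline (edgeR adjusted p = 0.135) and -0.15 with it (edgeR adjusted p = 0.116). Untreated mutant stood above untreated wild type in every library, with 71.1 ± 2.73 CPM in untreated mutant and 64.6 ± 3.53 CPM in untreated wild type. When the first treated mutant library was left out, the adjusted p with doxycycline was 0.0143.

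Cdkn1b, the p27 inhibitor that accumulates in resting cells, was higher in the mutant line. It had 61.2, 57.7 and 50.5 CPM in treated mutant, against 35.9, 39.2 and 43.9 CPM in treated wild type, and no library of the wild type reached the mutant (log2 fold change 0.50, SE 0.10, edgeR adjusted p = 3.77e-05). Without doxycycline it had 46.8, 47.6 and 55.4 CPM in mutant and 37.3, 35.9 and 47.5 CPM in wild type. One wild-type library reached the mutant range there, and the log2 value of 0.31 (SE 0.10, edgeR adjusted p = 0.0104) was not called when the third untreated mutant library was left out (adjusted p = 0.0846), nor without the first or the second untreated wild-type library (0.0584 and 0.0907). The third library was the highest in Cdkn1b in both wild-type groups, and it was also the highest in Bnip3 there, at 106.5 CPM in treated and 229 CPM in untreated wild type. The other wild-type libraries had 52.1 and 65.8 CPM of Bnip3 in treated and 58.5 and 63.3 CPM in untreated wild type. Mutant libraries, higher in Cdkn1b, had 83.4 to 134 CPM of Bnip3 in treated and 109 to 148 CPM in untreated mutant. The part of Bnip3-high libraries in the Cdkn1b level was not tested. Without the third untreated and the second treated wild-type library the Cdkn1b log2 fold changes were 0.49 with and 0.44 without doxycycline, both called by edgeR. That fit kept the third treated wild-type library.

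Cdkn1a was lower in the mutant line without doxycycline, by a call that 1 library decided. It had 31.3, 32.8 and 33.4 CPM in untreated mutant, against 48.5, 35.5 and 40.1 CPM in untreated wild type, and the log2 fold change was -0.35 (SE 0.10, edgeR adjusted p = 0.00398). The first untreated wild-type library was the highest of them, and when it was left out the adjusted p was 0.105. With doxycycline the levels were 32.6 ± 1.59 CPM in mutant and 34.2 ± 0.711 CPM in wild type, a log2 fold change of -0.07 with a 95% interval of -0.28 to 0.14 and an edgeR adjusted p of 0.631.

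Of the D-cyclin kinases, Cdk6 was called between the lines with doxycycline and Cdk4 in neither condition. Cdk4, at 539 ± 10.9 CPM in treated mutant, 535 ± 21.97 in untreated mutant, 526 ± 28.04 in treated wild type and 568 ± 11.4 in untreated wild type, had log2 fold changes of mutant over wild type of 0.04 with doxycycline (95% interval -0.05 to 0.12) and -0.09 without it (95% interval -0.17 to 0.000721). Neither was called, although the value without doxycycline passed when the third untreated mutant library was left out (edgeR adjusted p = 0.0420). Cdk6 had 12.1, 17.7 and 14.8 CPM in treated mutant and 10.5, 13.1 and 9.13 CPM in treated wild type, which overlapped, and its log2 fold change of 0.46 was called (SE 0.16, edgeR adjusted p = 0.0203). That call was lost with DESeq2 (adjusted p = 0.0879), without the second treated mutant library (edgeR adjusted p = 0.174) and without the first or the third treated wild-type library (0.0566 and 0.139). Without doxycycline Cdk6 came to 0.12 (95% interval -0.18 to 0.43).

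Counts of called genes in the other pathway lists are to be read against the 44.4% of all genes called between the lines with doxycycline and the 45.5% called without it. The S phase list lay well above these shares in both conditions, and so did the RB and E2F list without doxycycline (12 of 13 called). Of 24 S phase genes, which copy DNA or make its building blocks, 20 fell and none rose in mutant over wild type with doxycycline, and 21 fell and none rose without it. Their median log2 fold change was -0.38 with and -0.37 without doxycycline, beside 0.00905 and 0.00350 over all genes tested, and the counts stayed at 19 to 20 and 20 to 21 under every setting. Mcm5, a subunit of the replicative helicase, was at -0.60 with and -0.60 without doxycycline. Rrm2, of ribonucleotide reductase, was at -0.68 and -0.69, and Tk1, thymidine kinase, at -1.14 and -1.12 (edgeR adjusted p = 1.14e-16 with and 3.67e-16 without doxycycline).

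The 13 genes of the RB and E2F family had 3 that rose and 5 that fell with doxycycline, and 3 that rose and 9 that fell without it, in mutant over wild type. With doxycycline the number that rose was 1 to 3 over the settings, and without it 2 to 3 rose and 7 to 9 fell. Tfdp1, a partner with which most E2F proteins bind DNA, was at -0.92 with and -0.94 without doxycycline. The repressor E2f4 was at -0.57 and -0.65, and the repressor E2f8 at -1.07 and -1.13. These all passed edgeR's test. The 27 genes of G2 and mitosis were divided, with 4 that rose and 7 that fell with doxycycline and 4 that rose and 9 that fell without it (2 to 4 rose and 6 to 9 fell over the settings), near the share of all genes. Their medians of -0.06 and -0.05 lay near 0, with Top2a, which untangles DNA, at -0.42 and -0.34 and Nusap1, a spindle protein, at 0.34 and 0.37.

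Of the 14 genes for G1 kinase activation and cyclin turnover, 6 rose and 2 fell with doxycycline and 3 rose and 4 fell without it. The shares of all genes called were 44.4% with and 45.5% without doxycycline, and nothing particular to this list is read from its counts. Over the settings 4 to 6 rose and 0 to 3 fell with doxycycline. Gsk3b, a kinase that marks cyclin D for destruction, was at 0.27 and 0.33, and Cdk2, the partner of E-type cyclins, at -0.26 without doxycycline. Among 3 tested of 4 other CDK inhibitors, none was called with doxycycline (1 at an unadjusted p under 0.05, beside 50.7% of all genes) and 2 fell without it. These were Cdkn1c (p57) at -0.46 and Cdkn2b (INK4B), which neighbours Cdkn2a in the genome, at -1.31. Cdkn2b lost the call with DESeq2 (adjusted p = 0.0572). It rests on only 16 counts in untreated mutant and 37 in untreated wild type, each summed over 3 libraries. Untreated wild type, where it was highest, was the only group with all libraries above the filter's 2.18 CPM (lowest 2.49 CPM).

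The counts of the p53, MYC and Polycomb lists are likewise given beside the shares of all genes (44.4% with and 45.5% without doxycycline), with nothing particular to a list read from them. Of 18 tested p53 genes, 6 rose and 3 fell in mutant over wild type in each condition, but over the settings 2 to 4 fell with doxycycline, and 3 to 6 rose and 2 to 5 fell without it. Among those that rose was Gadd45a, a growth arrest gene, at 1.16 with and 0.48 without doxycycline. Trp53 itself fell in both conditions. It had 302 ± 3.09 CPM in treated mutant against 348 ± 15.8 CPM in treated wild type, and 305 ± 9.26 against 350 ± 28.8 CPM in the untreated groups. Pmaip1 fell with doxycycline, at 49.1 ± 1.64 CPM in treated mutant and 69.4 ± 2.16 CPM in treated wild type. In the MYC network 2 rose and 1 fell with doxycycline and 1 rose and 3 fell without it among 9 tested. Over the settings 1 to 2 rose and 0 to 1 fell with doxycycline, and 1 to 3 fell without it. Myc itself was at 0.67 and 0.57. Of 10 Polycomb genes, whose complexes are known to silence the Cdkn2a locus, 1 rose and 5 fell with doxycycline (0 to 2 and 3 to 5 over the settings). Without it 1 rose and 4 fell. Suz12 was at -0.70 and -0.67 and Jarid2 at -0.65 and -0.74. The gene that rose with doxycycline was Ring1, at 9.86 ± 0.591 CPM in treated mutant and 6.73 ± 0.901 CPM in treated wild type. The gene that rose without it was Bmi1, at 11.6 ± 0.137 CPM in untreated mutant and 6.87 ± 0.412 CPM in untreated wild type. The part of Polycomb genes in the Cdkn2a level was not tested.

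Within the wild-type line, calls among these pathway genes are to be read against the 5.32% of all genes called there. No S phase or G2 and mitosis gene passed edgeR's test there (3 of 24 and 2 of 27 at an unadjusted p under 0.05, beside 16% of all genes), and their medians were -0.03 and 0.03. Of 18 tested p53 genes 3 passed. Among them Pmaip1, a death effector, rose (0.40) and Gadd45a fell (-0.53, edgeR adjusted p = 0.00159, or 0.0501 without the third treated wild-type library). Bax (-0.16), Tfdp2 (-0.21), Cks2 (-0.20) and Jarid2 (-0.18) also fell, each by a call that was lost with DESeq2 and without single libraries. No MYC network gene passed (2 of 9 at an unadjusted p under 0.05), nor did another CDK inhibitor (0 of 3). In the mutant line none of the genes in the other 8 lists passed edgeR. At an unadjusted p under 0.05 there were 2 of 24 S phase genes and 1 of 27 G2 and mitosis genes. The rest of those lists had none, beside 4.69% of all genes. The responses of the lines differed for Gadd45a (0.68, edgeR adjusted p = 0.00266) and for the replication gene Gins2 (0.41, adjusted p = 0.0473), a call that DESeq2 (adjusted p = 0.287) and most fits without 1 library did not keep.

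**Figure D4:**
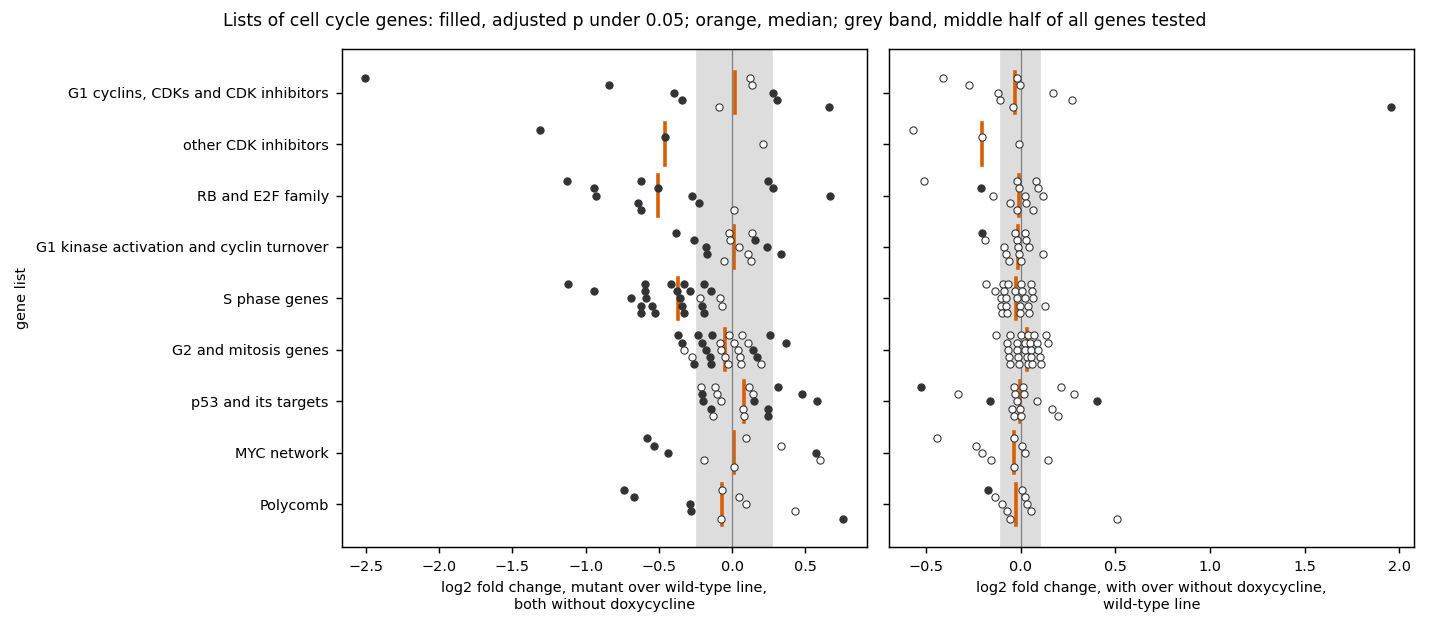
Log2 fold change of each tested gene of the G1 list and of the other pathway lists, in mutant over wild type without doxycycline (left) and in treated over untreated wild type (right); points are genes, filled where edgeR's adjusted p was under 0.05, the orange bar is the list's median and the grey band spans the quartiles of all genes tested. The S phase genes lie to the left of 0 between the lines (median -0.37) and near 0 in the wild-type response (median -0.03).

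Reads from both strands of a gene may have been counted together, since the sources used here do not give the strand setting. Exons of a gene on the opposite strand overlap those of Ccnd3 (Bysl), Ccne2 (Ints8) and Cdk4 (Tspan31), and also those of Ccnd1, Ccnd2, Cdk6 and Cdkn1a. Bysl had 563 to 669 counts per library, more than the 273 to 346 of Ccnd3, and Ints8 had 485 to 669, more than the 74 to 162 of Ccne2. Tspan31 had 236 to 309, fewer than the 2090 to 2613 of Cdk4. The part of reads from these genes in the member counts was not tested. The antisense gene of Ccnd2 that the count table lists, 9330179D12Rik, had 0 counts in every library. Cdk4 lies on chr10:127063534-127067920 (plus strand), Cdk6 on chr5:3341485-3531008 (plus strand), Cdkn1a on chr17:29090976-29100727 (plus strand) and Cdkn1b on chr6:134920401-134925513 (plus strand).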

How the data were processed

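The table held counts of reads per gene symbol for 12 libraries, as deposited by the authors. Libraries were made from total RNA with a TruSeq RNA kit, per the labels. The submitters' processing notes name Trimmomatic 0.33, TopHat2 2.1.1, limma and the mm10 genome, with no role stated for each. The counting tool and its annotation were not stated. Dates stood in place of 27 symbols (0.150% of counts), which stayed in the fit, and 4753 symbols had no count. Replicate pairs differed by more than sampling noise (chi-square per degree of freedom at least 1.11), and each counts as a sample.

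Groups came from the sample titles. All 12 libraries were fitted together with edgeR 4.0.16 (R 4.3.3): quasi-likelihood test, TMM scaling, filterByExpr (minimum count 10, here 2.18 CPM, total 15) and robust estimation, which kept 12322 symbols with 99.8% of the counts. Calls needed an adjusted p under 0.05 (Benjamini-Hochberg, per comparison). SE is the size of the log2 fold change over the square root of F, and can be too small at low counts. CPM are on TMM-adjusted libraries, divided by the union of exons (GENCODE M21) for levels per kilobase. Alternatives were RLE and upper-quartile scaling, no filter, DESeq2 1.42.0, limma-voom 3.58.1, the replicate number as a block, only the groups compared, and libraries left out.

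The members, gene lists and tests were chosen with earlier results of these data known. Named were all members, up to 3 called genes with the smallest adjusted p per other list and comparison, and the 4 genes nearest in pattern to each of the 2 members with the widest range. Bnip3, Rn45s, Hprt and the called markers (Pax6, Tubb3, Fgf5, Zfp42, Pou3f1, Nanog, Pou5f1, Lama1) are given beside the results they touch. Ring1, Bmi1, Trp53 and markers that were not called are named so that both directions of their lists, or the make-up of a sum, can be seen. Mycl was not found under that symbol, which left 9 MYC genes. In simulated counts over 12322 genes, 34% of genes changed 1.25-fold, 64% changed 1.5-fold and 88% changed 2-fold were recovered in the wild-type response with 5.33% of calls false. In the simulated mutant response 40%, 60% and 86% were recovered with 6.67% false. Each simulated response held 50 genes changed at each fold, while only 2 genes were called in the real mutant response. The adjustment was therefore stricter in the real mutant response, and the simulated rates are too high for it. A lack of calls there does not show a lack of changes of these sizes.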

Additional observations from a re-analysis of the deposited data

Results flagged for a closer look

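The response of Ccnd2 to doxycycline differed between the lines by a test of the difference itself, at -2.35 on the log2 scale (mutant line minus wild-type line, edgeR adjusted p = 5.97e-11). Ccnd2 averaged 8.44 CPM in treated and 11.1 CPM in untreated mutant, and 27.3 CPM in treated and 7.03 CPM in untreated wild type (n = 3 each).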

How the results depend on the processing

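The calls of Ccnd2, Ccne1, Ccne2, Ccnd1 and Cdkn2a given in the report held under every alternative, and over all members 954 values stayed as reported, 8 lost their call, 5 gained one and 23 changed sign, the last all among members that were not called. Without both libraries that stood apart no member lost its call, and Cdk4 between the lines without doxycycline gained one (edgeR adjusted p = 0.0209). At 4289984 to 4850393 counts per library Cdkn2a and Ccnd2 rest on few counts, and the size of change detectable at their counts was not tested.

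The number of genes called in the wild-type response was 380 with DESeq2, against 655, and in the difference of responses 150, against 307. With only the libraries compared the mutant response had 5 called genes, against 2. Leaving out 1 library gave 1 to 2 called members in the wild-type response (2 without the second untreated wild-type library) and 1 to 2 in the difference (2 without the first treated mutant library). The Ccnd2 share of plain counts differed by 8.78 points in the wild-type response, -0.96 in the mutant response, -8.53 between the lines with doxycycline and 1.21 without it. It gives more weight to long genes by construction.

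Log2 fold changes that changed sign all lay near 0. In the wild-type response Ccnd1 was 0.00537 with upper-quartile scaling, 0.000253 with limma-voom and -0.0751 to 0.0408 with 1 library left out, and Cdkn1b was -0.10 to 0.12 with 1 library left out and 0.12 without both libraries that stood apart. With 1 library left out, the mutant response ran from -0.22 to 0.0479 for Cdk6, from -0.18 to 0.0932 for Ccne2, from -0.0154 to 0.0438 for Cdk4 and from -0.0358 to 0.0323 for Cdkn1a. The difference of responses ran from -0.14 to 0.14 for Ccne2 and from -0.0902 to 0.0247 for Ccnd1, which was 0.0421 without both libraries. Cdk4 between the lines with doxycycline ran from -0.00353 to 0.0707 and was -0.00441 without both. The cause of these shifts was not tested.

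Replicate numbers did not pair the samples (correlations of deviations between -0.0712 and 0.0794). With the replicate block, 618, 2, 286, 5354 and 5502 genes were called in the wild-type response, the mutant response, their difference and the lines with and without doxycycline, against 655, 2, 307, 5466 and 5611, and the members called numbered 1, 0, 1, 7 and 7 as before.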
